A study of Mus musculus with 18 samples.

Results

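The chaperonin CCT, also called TRiC, was followed through its 8 subunit genes, Tcp1, Cct2, Cct3, Cct4, Cct5, Cct6a, Cct7 and Cct8, in mouse lenses with and without a crystallin mutation. The genes were taken by symbol from a table of 40800 Ensembl genes, and all 8 were found. RNA was sequenced from whole lenses in 18 libraries, 3 for each of 6 groups, and each library was a pool of several lenses. The Cryaa-R49C line, sampled at 2 days of age, gave lenses with no mutant copy (wild-type, WT), with 1 (het) and with 2 (homo), and the Cryab-R120G line gave the same 3 genotypes at 14 days. R49C and R120G are amino acid changes in αA- and αB-crystallin, the small heat shock proteins of the lens, and both were knocked in through embryonic stem cells, so every cell of a mutant mouse carries the allele. All mice had the C57BL/6J background, and the WT mice were C57BL/6J of the same age. Each line had WT lenses of its own age, so a mutant was compared with WT at 1 age. Line and age changed together, so a difference between the lines cannot be told apart from a difference between the ages.

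CCT is a double ring in the cytosol, and each ring holds 1 copy of each of the 8 different subunits. It encloses newly made proteins and lets them fold at the cost of ATP. Actin and tubulin are its best known clients, and lens fibre cells, which elongate and lose their organelles as they mature, contain large amounts of both. Prefoldin hands unfolded actin and tubulin to CCT, phosducin-like proteins assist it, and the tubulin cofactors take tubulin onward to make αβ dimers.

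On GRCm38, Tcp1 lies at chr17:12915701-12925067 on the plus strand, Cct3 at chr3:88297116-88321767 (plus), Cct4 at chr11:22990519-23003780 (plus), Cct6a at chr5:129786998-129846371 (plus) and Cct7 at chr6:85451514-85468475 (plus). On the minus strand lie Cct2 at chr10:117051001-117063814, Cct5 at chr15:31590800-31601804 and Cct8 at chr16:87483326-87495873. The 8 genes thus sit on 8 chromosomes. The annotation types 7 of them as protein-coding, and lists Cct6a as a processed transcript. Exons of Tcp1, Cct6a, Cct7 and Cct8 share 141, 452, 214 and 192 bases with the opposite-strand genes Mrpl18, Psph, Pradc1 and Usp16, and those of Tcp1 share a further 571 bases with Acat3. Whether the counting used strand is not stated. Acat3 had at most 6 counts in any library. The pseudogenes Tcp1-ps1 and Cct3-ps1 had at most 5 and 3 counts, and the testis paralog Cct6b had at most 28.

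The upstream sequences of 3 subunits are shown because Tcp1 and Cct5 were the 2 subunits that passed the test between ages, and Cct2 was the subunit least like the mean of the 8. Each sequence is the 250 bases before the transcription start in RefSeq (GRCm38.p6), written 5′ to 3′ on the gene's own strand. The windows are chr17:12916079-12916328 (plus) for Tcp1, chr15:31601847-31602096 (minus) for Cct5 and chr10:117063853-117064102 (minus) for Cct2. The Tcp1 window lies inside the gene span given above, because the GENCODE gene starts before the RefSeq start, so it is upstream only on the RefSeq model. Capitals mark a CCAAT box in Tcp1 and a TTCNNGAA match in Cct5.
Tcp1: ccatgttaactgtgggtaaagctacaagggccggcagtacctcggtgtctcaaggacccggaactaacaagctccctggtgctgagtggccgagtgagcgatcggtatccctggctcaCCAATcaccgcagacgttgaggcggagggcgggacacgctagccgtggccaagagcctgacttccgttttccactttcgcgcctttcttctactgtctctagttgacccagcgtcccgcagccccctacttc
Cct5: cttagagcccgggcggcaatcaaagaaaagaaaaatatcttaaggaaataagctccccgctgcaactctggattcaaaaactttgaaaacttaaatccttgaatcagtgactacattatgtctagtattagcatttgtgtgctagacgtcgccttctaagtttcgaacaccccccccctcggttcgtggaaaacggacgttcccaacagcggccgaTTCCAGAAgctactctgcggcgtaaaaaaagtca
Cct2: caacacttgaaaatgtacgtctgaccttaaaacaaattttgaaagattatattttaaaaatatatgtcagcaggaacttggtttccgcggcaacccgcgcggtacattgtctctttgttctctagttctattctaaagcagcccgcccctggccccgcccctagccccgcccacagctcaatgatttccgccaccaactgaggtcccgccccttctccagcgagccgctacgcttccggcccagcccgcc
RefSeq windows were matched for 7 of the 8 subunits, all but Cct4. The letters CCAAT, read on both strands, stood in 4 of the 7 windows (Tcp1, Cct3, Cct6a and Cct7), against 33.8% of all 32851 windows of this length. GGGCGG, the GC box, stood in 7 of 7 on one strand or the other, against 32.7% of all windows. Of 2 letter patterns in which heat shock units face or leave each other, GAANNTTC was in none of the 7 (6.69% of all windows) and TTCNNGAA only in Cct5 (7.17%). TGATGNAA, a pattern of ATF4-type elements, was in none (3.45%).

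The libraries held 14272174 to 29639719 counts, and a subunit had between 406 and 11008 counts in a library. Levels are given as CPM, counts scaled to a common library total, with the TMM factors of edgeR, which set libraries to a common level over most genes. Of 12 lens fibre markers 11 were detected, with Lim2 at 0 in all 18 libraries, and 6 of 7 lens epithelium markers were detected, with Pdpn at 0. The 17 crystallin genes took 23.8 to 76.1% of a library's counts, and the single gene Gm42418 took 2.53 to 42.6%. Both extremes of Gm42418 and the lowest crystallin share were in Cryaa homo libraries. Those 3 libraries stood apart from each other: Gm42418 took 2.53, 24.5 and 42.6% of counts, and crystallins 61.2, 37.7 and 23.8%, in replicates 1, 2 and 3. The mutated genes were read in every group: Cryaa was at 91526 ± 18694 CPM in Cryaa WT and 54201 ± 33739 in Cryaa homo lenses (SD, n = 3), and Cryab was at 41119 ± 7157 in Cryab WT and 32886 ± 2696 in Cryab homo lenses. A knock-in of a single amino acid leaves the gene's own counts in place, so these levels do not check the genotype. In whole lenses, fewer cells of a type and less RNA per cell cannot be told apart.

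Cct5 was the most abundant subunit RNA in the WT lenses of both ages. Levels between genes are compared per kilobase of exon. In 2-day WT lenses Cct5 was at 76.9 ± 10.2 CPM per kilobase (SD, n = 3), followed by Cct8 at 45.1 ± 6.38, Tcp1 at 33.9 ± 4.35 and Cct2 at 25.4 ± 3.66. In this order the libraries of each of these 4 did not overlap those of the next. Cct7 (17.5), Cct6a (15.0), Cct3 (14.1) and Cct4 (12.9) came last, and neighbours among these did not differ beyond the spread of their libraries. At 14 days Cct5 stood at 165 ± 18.04 CPM per kilobase, while Cct8 (71.0 ± 9.97) and Tcp1 (68.9 ± 10.1) overlapped each other. The mean level of Cct5 was 5.97 times that of Cct4, the lowest subunit, in 2-day WT lenses and 10.8 times in 14-day WT lenses. Dividing by the length of the coding transcript (for Cct6a, its longest transcript) instead of all exonic bases put Tcp1, at 69.7 CPM per kilobase, before Cct8, at 58.2, in 2-day WT lenses, with Cct5 still first and Cct4 still last. With these lengths Cct7 (48.5) and Cct3 (45.3) also lay above Cct2 (33.1) in every library, where exonic lengths put Cct2 above both.

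**Figure D1:**
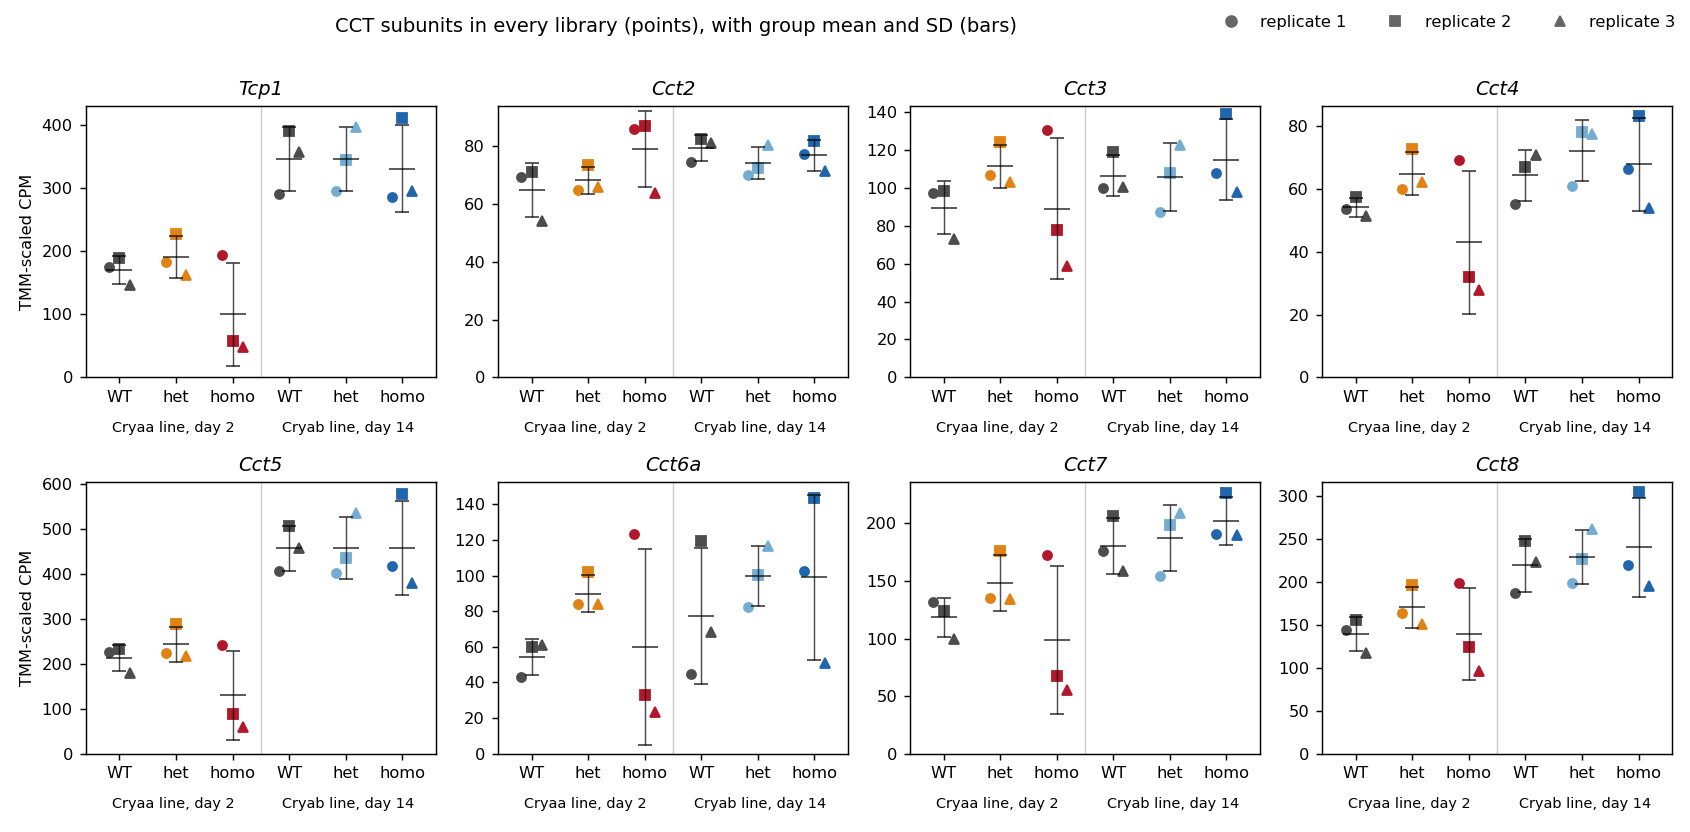
TMM-scaled CPM (y axis, linear, from 0) of each CCT subunit in all 18 libraries, by genotype and line; marker shapes give the replicate, and bars the group mean and SD (n = 3). In the Cryaa homo group replicate 1 sits above the WT libraries in all 8 panels, while replicates 2 and 3 of Tcp1 (58.3 and 47.9), Cct4, Cct5, Cct6a and Cct7 lie below every WT library.

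The WT lenses allow a comparison of 14 with 2 days of age, which also compares 2 sets of control mice. Tcp1 and Cct5 rose, by 2.03-fold and 2.15-fold. Tcp1 was at 175, 190 and 147 CPM at 2 days and at 291, 391 and 357 CPM at 14 days. Cct5 was at 225, 232 and 180 CPM at 2 days and at 407, 507 and 457 CPM at 14 days. In both genes every older library lay above every younger library. The log2 fold change was 1.02 ± 0.36 (SE) for Tcp1 and 1.10 ± 0.34 for Cct5, with edgeR adjusted p = 0.0435 and 0.0237. These come from edgeR's quasi-likelihood test over 13938 genes with Benjamini-Hochberg adjustment and a threshold of 0.05. Of all genes tested, 23.2% passed in either direction and 11.7% were higher at 14 days, and of the 8 subunits 2 were higher and 0 lower.

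Cct8 followed with 144, 156 and 118 CPM at 2 days and 187, 248 and 223 CPM at 14 days. Its log2 fold change of 0.66 ± 0.25 did not pass the test (edgeR adjusted p = 0.0608), though it did with DESeq2 (adjusted p = 0.0454), and neither did that of Cct7, 0.61 ± 0.30 (edgeR adjusted p = 0.148). Cct6a, the subunit with the widest spread, was at 44.7, 119 and 68.3 CPM in 14-day WT libraries and had a value of 0.51 ± 0.52. The smallest differences were those of Cct2, Cct3 and Cct4, at 0.29 ± 0.19, 0.25 ± 0.25 and 0.25 ± 0.27. The median over the 8 subunits was 0.56, beside -0.07 over all genes. Libraries did not overlap in 6 of the 8, all higher at 14 days, beside 20.2% of all genes in that direction.

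Scaling by library totals without TMM factors moved all genes down, to a median of -1.61, and with them the subunits: Tcp1 was at -0.50, Cct5 at -0.42, and 0 subunits were higher and 5 lower at 14 days. Relative to that median Tcp1 was 1.11 and Cct5 1.196 higher. When any WT library but Cryab WT replicate 1 was left out, neither gene passed and 0 subunits were called, with edgeR adjusted p up to 0.159 for Tcp1 and 0.107 for Cct5. The log2 fold changes stayed at 0.92 to 1.13 for Tcp1 and 0.99 to 1.18 for Cct5 over these 6 fits. Lens fibre markers moved the same way, with 8 of 11 higher at 14 days and a median log2 fold change of 1.66. Of 12 cell cycle genes 11 were lower. Of 8 vessel and mesenchyme markers 1 was higher, Acta2, and 4 lower, and their summed level was 160 to 189 CPM at 14 days and 34.4 to 49.8 CPM at 2 days. Of 8 pigment epithelium markers 4 were lower (median -1.82), and of 8 inner retina and glia markers 3 were lower (median -1.72). All 8 macrophage markers were lower. Of 6 epithelium markers 1 was higher and 2 lower. The summed level of 8 photoreceptor markers was 8.17 to 34.0 CPM in 2-day WT libraries and 819, 22.3 and 84.9 CPM in those of 14 days, and 5 of the 8 were higher and 0 lower (median 4.004). Without the library of 819 CPM, Tcp1 was at 1.13 and Cct5 at 1.18, both past the threshold (edgeR adjusted p = 0.0431 and 0.0304). The part of the fibre, cell cycle and other cell type genes in this result was not tested.

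**Figure D2:**
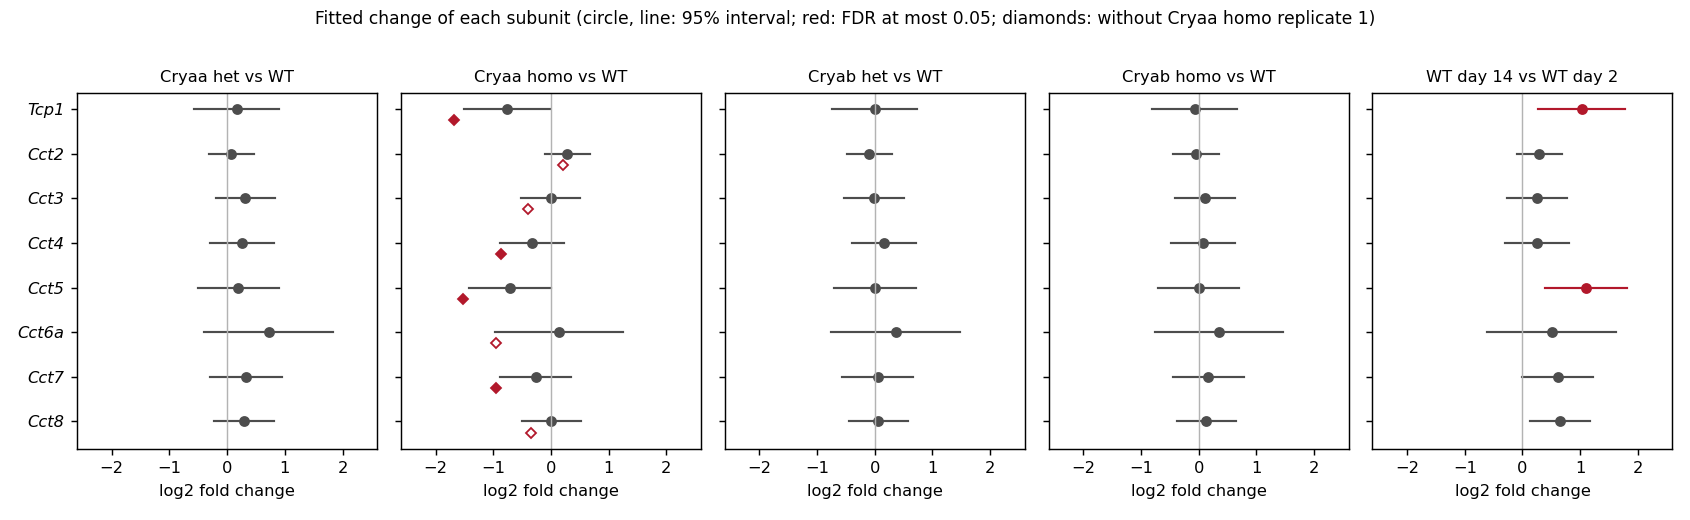
Log2 fold change (x axis) of each subunit in 5 comparisons, from the 6-group edgeR model; circles are estimates, lines 95% intervals, a red circle marks an adjusted p of at most 0.05, and diamonds, drawn for Cryaa homo against WT, give the value without homo replicate 1 (filled where it passed, open where not). Red circles appear for Tcp1 and Cct5 at 14 against 2 days, and filled diamonds for Tcp1, Cct4, Cct5 and Cct7.

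In 2-day lenses with 1 copy of Cryaa-R49C, no subunit passed the test, beside 0.00717% of all genes (1 gene). Values were positive for all 8, from 0.07 ± 0.19 for Cct2 to 0.72 ± 0.52 for Cct6a, with a median of 0.28 beside -0.01 over all genes. Cct6a was at 83.8, 102 and 83.7 CPM in het and 42.8, 59.6 and 61.0 CPM in WT lenses, without overlap. Cct3, Cct4 and Cct7 also lay above every WT library, so that 4 of 8 did not overlap, beside 9.57% of all genes in that direction. The smallest edgeR adjusted p among the 8 was 0.836. Counted by p alone, 709 of the 13938 genes had p under 0.05, and none of these was a subunit. The 95% interval of Cct5, from -0.51 to 0.90, still allows a change of either sign. Some other folding genes also ran higher, with overlap. Prefoldin summed to 173 to 203 CPM in het and 146 to 176 CPM in WT lenses. Cytosolic heat shock chaperones summed to 1160 to 1498 and 976 to 1325 CPM. The 3 heat shock factors ran lower, at 42.9 to 67.2 and 49.7 to 75.3 CPM. Gm42418 took a smaller share of counts in het (11.9 to 17.97%) than in WT lenses (20.01 to 30.1%), and crystallins a larger share (52.8 to 61.4% against 46.3 to 48.99%). With Gm42418 and the crystallin genes left out of the fit, the median of the 8 subunits was 0.30, Cct6a was at 0.75 and Cct7 at 0.35, and 0 subunits passed. Of 12 cell cycle genes 10 were positive (median 0.38) and of 8 vessel and mesenchyme markers none (median -0.46). Positive values were also found for 5 of 5 erythrocyte markers (median 0.59), 7 of 8 photoreceptor markers (0.49), 3 of 8 pigment epithelium markers (-0.52) and 1 of 6 lens epithelium markers (-0.38). No gene of these lists passed the test, and their part in the CCT values was not tested.

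In lenses with 2 copies of Cryaa-R49C, the 3 libraries did not behave alike, and no subunit passed the test by edgeR or DESeq2, while 9.79% of all genes did by edgeR (679 higher and 685 lower). By p alone, before adjustment, Tcp1 and Cct5 were the 2 subunits under 0.05, beside 3385 of the 13938 genes. This count is thus not read as particular to the subunits. Tcp1 was at 195, 58.3 and 47.9 CPM in replicates 1, 2 and 3, against 147 to 190 CPM in WT lenses. Cct5 was at 242, 89.0 and 58.4 CPM, against 180 to 232 CPM. In both genes replicate 1 lay above the WT range and the other two libraries below it. The log2 fold change was -0.76 ± 0.36 for Tcp1 (edgeR adjusted p = 0.191) and -0.71 ± 0.34 for Cct5 (edgeR adjusted p = 0.204).

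The same split ran through Cct4, Cct6a and Cct7. Cct4 was at 69.3, 31.96 and 27.8 CPM (WT 51.4 to 57.5), Cct6a at 123, 32.8 and 23.3 CPM (WT 42.8 to 61.0) and Cct7 at 173, 67.7 and 55.4 CPM (WT 99.3 to 132). Cct3 was at 131, 77.9 and 58.6 CPM (WT 73.3 to 98.2) and Cct8 at 199, 124 and 95.9 CPM (WT 118 to 156), so that replicate 2 was inside the WT range of both and replicate 3 below it. Cct2 did not follow: it was at 86.1, 86.9 and 63.8 CPM, against 54.1 to 71.0 CPM in WT lenses. Log2 fold changes were -0.33 ± 0.27 for Cct4, 0.14 ± 0.52 for Cct6a, -0.26 ± 0.30 for Cct7, -0.01 ± 0.25 for Cct3, 0.01 ± 0.25 for Cct8 and 0.28 ± 0.19 for Cct2. The median was -0.14, beside 0.00 over all genes, and no subunit had homo libraries free of overlap with WT, beside 24.5% of all genes. Of the genes that share exonic bases with subunits on the other strand, Mrpl18 (0.69) and Usp16 (0.64) rose in homo lenses (edgeR adjusted p = 0.0425 and 0.0349), and their part in the counts of Tcp1 and Cct8 was not tested.

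Summed over the subunits, the level was 1218, 569 and 431 CPM in the homo libraries and 784 to 989 CPM in WT lenses. Replicate 1, with the highest CCT level, was the library with 2.53% Gm42418 and 61.2% crystallin counts, and replicate 3, with the lowest, had 42.6% and 23.8%. The 8 subunits together took 0.760, 0.302 and 0.220% of the counts outside Gm42418 and crystallins, and 0.500 to 0.506% in WT lenses. The summed level of the 11 fibre markers was 168855, 81015 and 58381 CPM in replicates 1, 2 and 3, and that of the 6 epithelium markers 150, 172 and 145 CPM. With Gm42418 and the crystallin genes left out of the fit, Tcp1 was at -0.72 and Cct5 at -0.67, and 0 subunits passed. The part of the fibre and epithelium markers in the CCT values was not tested.

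**Figure D3:**
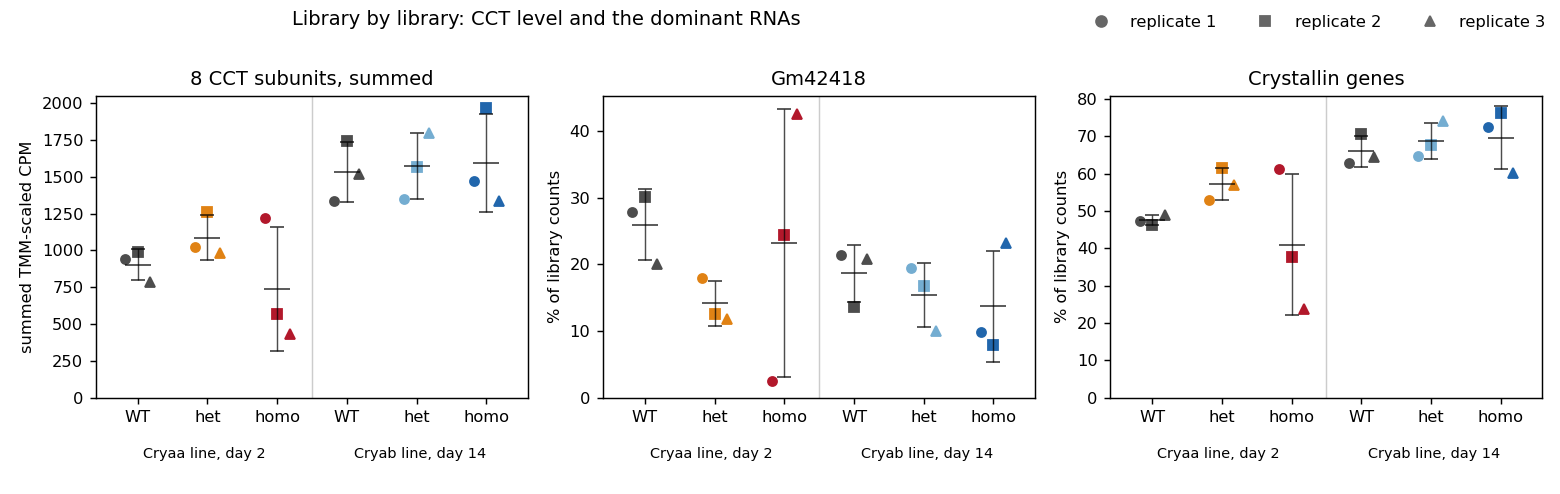
Summed TMM-scaled CPM of the 8 subunits (left), and the percent of library counts from Gm42418 (middle) and from crystallin genes (right), for each of the 18 libraries with group mean and SD. The 3 Cryaa homo libraries span 1218 to 431 CPM, 2.53 to 42.6% and 61.2 to 23.8%, wider than any other Cryaa group.

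Each homo library was therefore left out in turn. Without replicate 1, 4 subunits passed the test and were lower than in WT lenses: Tcp1 at -1.68 ± 0.22 (edgeR adjusted p = 7.22e-06), Cct5 at -1.53 ± 0.23, Cct7 at -0.95 ± 0.20 and Cct4 at -0.86 ± 0.20. In that fit 21.5% of all genes passed (12.3% lower). Cct6a (-0.96 ± 0.41), Cct3 (-0.40 ± 0.20), Cct8 (-0.34 ± 0.21) and Cct2 (0.21 ± 0.18) did not pass. In the 2 libraries kept, the summed level of vessel and mesenchyme markers was 79.6 and 67.6 CPM (34.3 in replicate 1, 34.4 to 49.8 in WT) and that of macrophage markers 27.4 and 33.9 CPM (19.0 in replicate 1, 7.02 to 16.8 in WT). In this fit 3 of 8 vessel and mesenchyme markers were higher and 1 lower (median 1.23), and 4 of 8 macrophage markers were higher (median 1.38). Erythrocyte markers summed to 149 and 79.4 CPM (41.3 in replicate 1, 36.7 to 57.8 in WT), and none passed. Their part in the lower CCT values was not tested. Without replicate 2 or 3, 0 subunits passed, and Tcp1 was at -0.48 and -0.43. The edgeR likelihood-ratio test with dispersions that give less weight to outlying libraries called Tcp1, Cct4, Cct5 and Cct7, with Tcp1 at -1.45. It called 2887 of 13938 genes, and it used the same libraries, so it is not separate support. Nothing in the labels sets replicate 1 apart, and a result that needs 1 of 3 libraries removed is given as a description of these libraries.

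Against het lenses, Tcp1 and Cct5 in homo lenses were at -0.93 ± 0.36 and -0.90 ± 0.34 (edgeR adjusted p = 0.116 and 0.109), and no subunit passed, beside 8.32% of all genes. Both passed and were lower with every gene that had a count in the fit (edgeR adjusted p = 0.0175 and 0.0243), beside 1419 of 26547 genes. In that fit no gene keeps its own spread, so these p-values do not measure the split of Tcp1 and Cct5 among the homo libraries. Both also passed and were lower with the replicate number as a block (edgeR adjusted p = 0.0267 and 0.0290), beside 1280 of 13938 genes. With the likelihood-ratio test 5 subunits were lower, beside 3052 of 13938 genes called. Without homo replicate 1, 7 subunits passed and were lower, all but Cct2, with Tcp1 at -1.85 ± 0.22, beside 28.7% of all genes. In that fit 7 of 11 fibre markers and 6 of 12 cell cycle genes were lower, and 5 of 8 macrophage and 4 of 8 vessel and mesenchyme markers were higher. With all homo libraries, 2 fibre markers and 4 cell cycle genes were lower, and 1 macrophage and 2 vessel and mesenchyme markers were higher. The part of these genes in the CCT values was not tested. The comparisons with WT and with het share the homo libraries.

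The make-up of the CCT RNA within a library does not depend on how libraries are scaled, and for 4 subunits the 3 homo libraries lay on the same side of WT. Each subunit's level per kilobase was expressed as a percent of the sum of the 8. Tcp1 made up 12.1, 7.39 and 8.14% of the CCT total in homo lenses and 14.0, 14.3 and 14.0% in WT lenses. Cct5 made up 27.3, 20.5 and 18.04% in homo and 32.7, 31.8 and 31.2% in WT lenses. For both, replicate 1 lay below every WT library, and replicates 2 and 3 lay further below.

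The shares that were larger in homo lenses were those of Cct3, at 6.397, 7.79 and 7.85% against 5.51 to 6.12% in WT lenses, and of Cct8, at 20.1, 25.6 and 26.5% against 18.2 to 19.1%. Cct2 was at 10.5, 21.7 and 21.3%, against 10.1 to 10.9%, so that only replicates 2 and 3 were outside the WT range. Shares of Cct4, Cct6a and Cct7 overlapped. Shares without overlap were thus 4 of 8, the same with coding transcript lengths or no division by length. Here and below, the shares of a library add up to a fixed total, so where some are lower others must be higher. The larger shares of Cct3 and Cct8 are therefore not read as changes separate from the lower shares of Tcp1 and Cct5. In level, Cct3 and Cct8 had log2 fold changes of -0.01 ± 0.25 and 0.01 ± 0.25 in homo against WT lenses. Of all genes tested, counts relative to the summed CCT counts did not overlap in 16.9%. A subunit is part of that sum and other genes are not. These shares of all genes, here and below, are thus not a like background for the subunits. With 3 libraries against 3, an exact permutation test cannot go below p = 0.1, and no test is given. The counts of Tcp1 were 2.52, 2.67 and 2.71 times those of Cct2 in WT lenses, and 2.26, 0.671 and 0.751 times in homo lenses. Those of Cct5 were 1.23 to 1.29 times those of Tcp1 in WT lenses and 1.24, 1.53 and 1.22 times in homo lenses, a much narrower range.

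Between WT lenses of 14 and 2 days the shares of Tcp1, Cct5, Cct3 and Cct8 differed in the opposite direction. Tcp1 made up 16.01, 16.5 and 17.1% and Cct5 40.7, 38.9 and 39.8% at 14 days, above every 2-day library. Cct2 (6.86 to 8.05%), Cct3 (3.804 to 4.33%), Cct4 (3.37 to 4.06%) and Cct8 (16.7 to 17.4%) lay below every 2-day library. The levels of these 4 had positive log2 fold changes (0.29, 0.25, 0.25 and 0.66), so their lower shares are not lower levels. These 6 of 8 are not read as particular to the subunits, beside 62.6% of all genes whose counts relative to the CCT sum did not overlap between the ages. In Cryaa het lenses Tcp1, at 12.4 to 13.6%, and Cct2, at 8.63 to 9.96%, lay below every WT library, and Cct6a, at 8.46 to 8.91%, lay above (WT 4.74 to 8.07%). These 3 of 8, 4 with coding transcript lengths or no division by length, are read beside 29.0% of all genes. In homo against het lenses the shares of Tcp1 and Cct5 were lower and those of Cct2, Cct3 and Cct8 higher in every library, beside 21.3% of all genes.

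**Figure D4:**
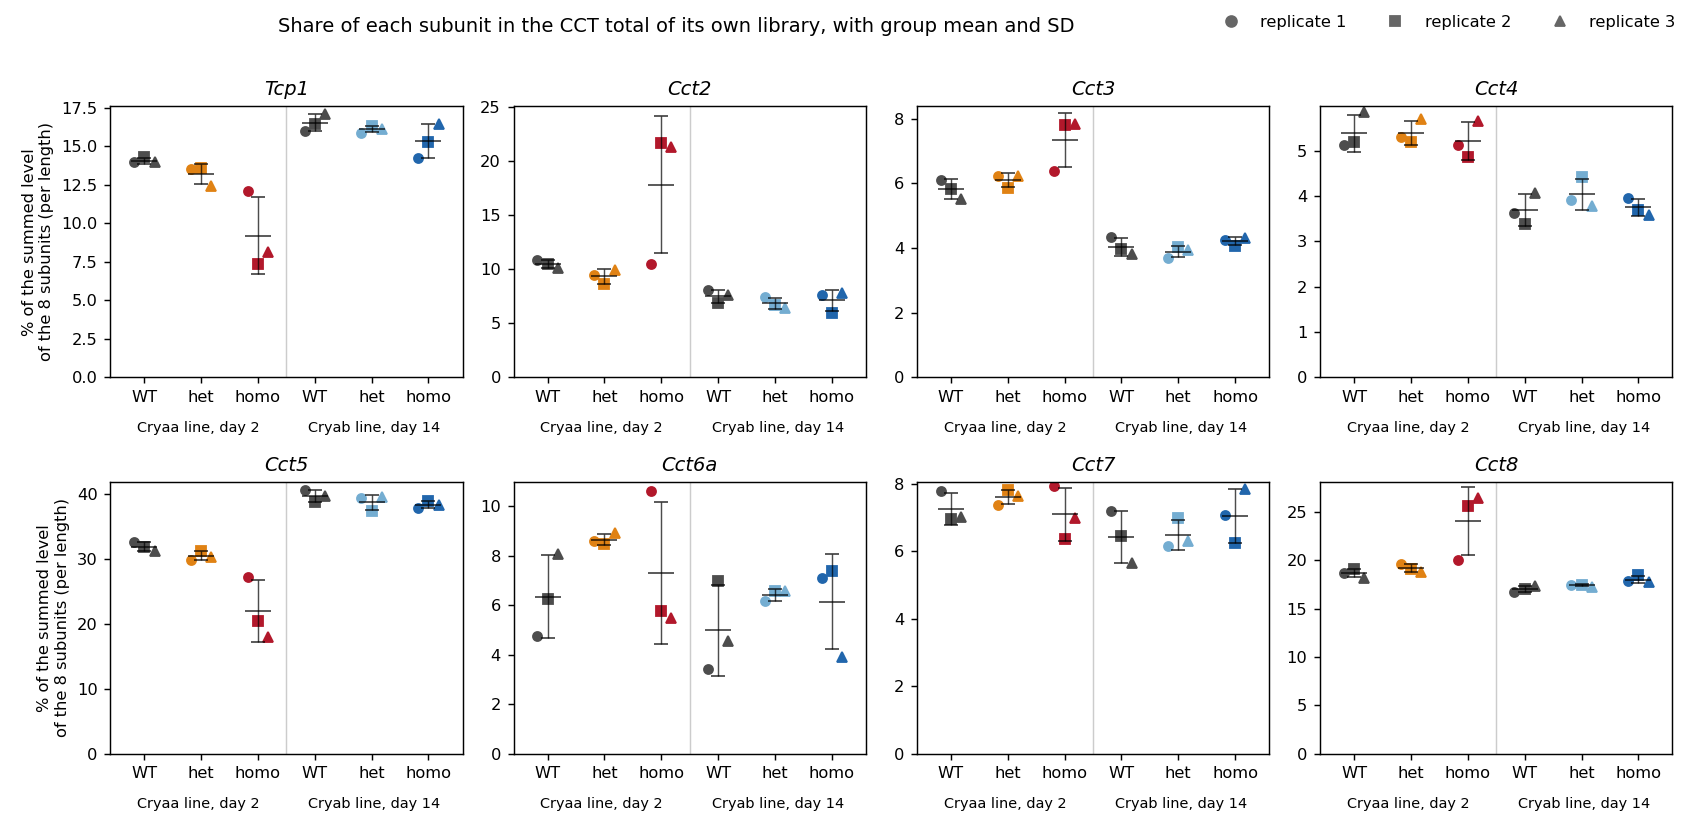
Percent of the summed per-kilobase level of the 8 subunits (y axis, from 0) contributed by each subunit in every library, with group mean and SD (n = 3). Tcp1 and Cct5 lie lower in all 3 Cryaa homo libraries (7.39 to 12.1% and 18.04 to 27.3%) and higher in the 14-day WT libraries (16.01 to 17.1% and 38.9 to 40.7%), and Cct2 reaches 21.7% in Cryaa homo replicate 2.

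The Cryab-R120G mutation was followed in 14-day lenses, and no subunit passed the test in either genotype. In het against WT lenses the values ran from -0.10 ± 0.19 for Cct2 to 0.36 ± 0.52 for Cct6a, beside 0.00717% of all genes called. In homo against WT lenses they ran from -0.06 ± 0.35 for Tcp1 to 0.35 ± 0.52 for Cct6a, beside 0.0502% of all genes. Homo against het lenses gave 0 subunits by edgeR and 0 by DESeq2, and the share of all genes called by edgeR was 0.0% (274 genes had p under 0.05). Tcp1 was at 286, 411 and 296 CPM in homo and 291 to 391 CPM in WT lenses, and Cct5 at 418, 577 and 379 CPM in homo and 407 to 507 CPM in WT lenses. No subunit was free of overlap in any of the 3 comparisons, beside 10.1, 9.0 and 6.86% of all genes in either direction for het and homo against WT and homo against het. The 95% interval of Cct5 in homo against WT lenses was -0.70 to 0.71, which still allows a change of either sign. Among shares, Cct8 alone was outside the WT range, at 17.7 to 18.5% in homo and 16.7 to 17.4% in WT lenses, beside 7.58% of all genes, and it overlapped when counts were not divided by length. No share was outside the WT range in het lenses (8.69% of all genes), and Cct3 and Cct8 were higher in homo than in het lenses (6.74%), Cct8 only per kilobase of exon.

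The homo effect was compared between the lines as a difference of differences. It was -0.70 ± 0.50 for Tcp1, -0.71 ± 0.48 for Cct5 and 0.33 ± 0.27 for Cct2 on the log2 scale, in the Cryaa line minus the Cryab line. No subunit passed (smallest edgeR adjusted p = 0.518, for Cct5), beside 2.91% of all genes. Without Cryaa homo replicate 1, Tcp1 (-1.62 ± 0.29), Cct5, Cct4 and Cct7 passed, beside 12.5% of all genes.

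The genes whose pattern was most like that of the subunits were ranked by Pearson's r with the mean log2 CPM of the 8, centred within each line, over 18 libraries. The 5 highest were Sdhb (0.983), Psmd6 (0.983), Uqcrc2 (0.981), Dstn (0.978) and Eif4e (0.973). Sdhb and Uqcrc2 belong to the respiratory chain, Psmd6 to the proteasome, Dstn to actin turnover and Eif4e to translation initiation. The points share library and scaling, and the split of the Cryaa homo libraries weighs in each r. Among the subunits themselves, each a part of the mean, r was 0.912 to 0.971 for 7 and 0.265 for Cct2.

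Among genes that work with CCT, prefoldin was the list with most members higher in Cryaa homo lenses. Counts in these lists are read beside the 9.79% of all genes that passed, and 21.5% without homo replicate 1. Of the 6 prefoldin subunits 4 rose and 0 fell against WT, with a median of 0.81 beside 0.00 over all genes. Pfdn6 rose by 1.42 ± 0.22, Pfdn1 by 0.87 ± 0.19, Pfdn4 by 0.83 ± 0.22 and Pfdn2 by 0.79 ± 0.21. Without homo replicate 1, 4 prefoldin genes were higher and 0 lower, with a median of 0.93. Of 7 tubulin folding cofactors Tbcc (1.32 ± 0.23) and Tbca (1.03 ± 0.24) rose, with a median of 0.17 over the list. Without homo replicate 1, 2 were higher and 1 lower, with a median of -0.09. Of 3 phosducin-like genes tested none passed, and 1 was higher without homo replicate 1.

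Among the clients, 4 of 14 actin and tubulin genes fell and 0 rose, beside 9.79% of all genes that passed in either direction. They were Tuba4a at -1.58 ± 0.39, Tuba1a at -0.90 ± 0.22, Tubb2b at -0.87 ± 0.20 and Tubb2a at -0.86 ± 0.20, all tubulins, and 7 fell without homo replicate 1, beside 12.3% of all genes lower in that fit. Of 11 other clients Gnb2, a G protein β subunit, rose by 1.15 ± 0.27. Of 4 chaperonin-related genes Mkks, which acts in the assembly of the BBSome with CCT, rose by 1.10 ± 0.21. In the mitochondrial chaperonin Hspd1 was at 0.29 ± 0.31 and its co-chaperonin Hspe1 at -0.40 ± 0.24, and neither passed.

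The same lists in WT lenses of 14 against 2 days are read beside 23.2% of all genes that passed and 11.7% that were higher. Pfdn2 and Pfdn5, of 6 prefoldin genes, and Tbca, Tbcb and Tbcc, of 7 tubulin cofactors, were higher in 14-day WT lenses. Of 14 actin and tubulin genes 3 were higher (Tubb2a at 1.54, Tuba4a at 1.23 and Tuba1a at 0.76) and 2 lower (Tubb3 at -2.62 and Tuba1c at -2.33). Of the other clients Plk1 and Cdc20, both cell cycle proteins, and Trp53 were lower. Hspe1 was higher by 1.17 ± 0.24, and Hspd1 was at 0.22 ± 0.32.

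The cytosolic heat shock chaperones were read beside the subunits because both are targets of heat shock factors. In Cryaa homo lenses 3 of 16 fell against WT and 0 rose, beside 9.79% of all genes that passed: Hspb1, the small heat shock protein HSP27, at -5.51 ± 0.53, Dnajb1, a partner of HSP70, at -1.86 ± 0.31, and Hspa4l at -0.58 ± 0.18. Without homo replicate 1, 6 were lower and 3 higher, beside 21.5% of all genes that passed. Hsf4, the heat shock factor of the lens, fell by 0.74 on the log2 scale (SE 0.22), and Hsf1 (-0.58 ± 0.27) and Hsf2 (-0.48 ± 0.30) did not pass. At 14 against 2 days in WT lenses 11 of 16 chaperones were higher and 0 lower, beside 11.7% of all genes higher, among them Hspb1 (3.97 ± 0.44), Dnajb1 (1.52 ± 0.31), Hspa8 (1.08 ± 0.28) and Hsp90ab1 (0.79 ± 0.21), and Hsf4 was higher by 1.12 ± 0.22. No prefoldin gene, tubulin cofactor, mitochondrial chaperonin or heat shock factor passed in Cryab homo against WT lenses, and 1 heat shock chaperone did, Hspa8 at -1.84 ± 0.29, named here after its value was seen, beside 0.0502% of all genes.

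**Figure D5:**
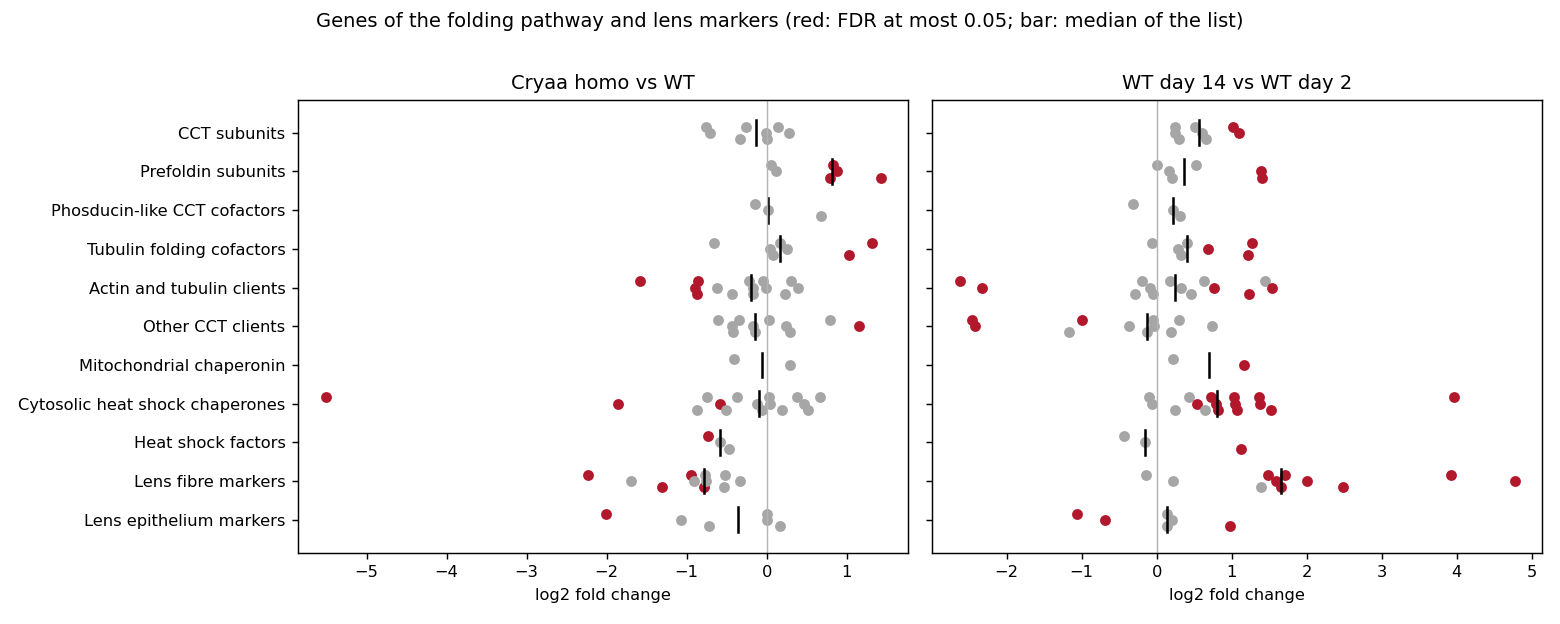
Log2 fold change (x axis) of each gene in 11 lists, for Cryaa homo against WT (left) and 14- against 2-day WT lenses (right); red marks an adjusted p of at most 0.05 and the black bar the median of a list. On the left prefoldin lies to the right (median 0.81) and fibre markers to the left (median -0.78), with the CCT median at -0.14; on the right the CCT median is 0.56.

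Of 11 lens fibre markers 4 fell and 0 rose in Cryaa homo against WT lenses, with a median of -0.78. Bfsp1, a beaded filament protein, was at -2.23, and Dnase2b, the nuclease that degrades fibre nuclei, at -1.31. Without homo replicate 1, 7 of 11 fell. Of 6 epithelium markers Gja1 fell (-2.003 ± 0.28). Of 8 macrophage markers 2 rose, C1qa and Aif1, and their summed level was 19.0 to 33.9 CPM in homo and 7.02 to 16.8 CPM in WT lenses. The sum of 8 pigment epithelium markers was 9.58 to 15.3 CPM in homo and 18.6 to 35.5 CPM in WT lenses, and 2 fell. Vessel and mesenchyme markers had 1 higher and 1 lower of 8, and erythrocyte, photoreceptor and inner retina markers had none past the test. Of 12 cell cycle genes none passed in homo against WT lenses, and 2 were lower without homo replicate 1. The part of these lists in the CCT values was not tested.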

How the data were processed

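Poly-A RNA from pooled whole mouse lenses was sequenced as 50-base single reads. The authors aligned the reads to GRCm38 with STAR 2.0.4b and deposited raw counts of uniquely aligned, unambiguous reads per Ensembl gene (featureCounts 1.4.5). Titles gave the groups, because 6 Cryab het and homo samples carry the Cryaa mutation in another label. From the deposited counts, edgeR 4.0.16 (R 4.3.3, limma 3.58.1) with filterByExpr (13938 genes), TMM factors and a robust quasi-likelihood test was fitted to all 6 groups together, with Benjamini-Hochberg adjustment over all genes tested. The authors' looser filter on low counts was an alternative here, as were DESeq2 1.42.0, other scalings, a likelihood-ratio test with outlier-robust dispersions, a replicate block and leaving out each library. The quasi-likelihood script was tested on simulated data. Lengths and positions came from GENCODE on GRCm38 and promoters from RefSeq. The named genes were all 8 subunits, up to 4 passing genes with the smallest adjusted p in each other list in Cryaa homo against WT, Hspd1, Hspe1, the heat shock factors, the 5 genes most like the subunits, Cryaa, Cryab and Gm42418. Outside this rule, genes that overlap or resemble a subunit were named for their position or sequence, markers at 0 for that value, and genes of the comparison of ages after their values were seen. The subunits and lists were chosen with earlier results of these data known. P-values measure only the spread between pooled-lens libraries. The transcript-length levels and the list counts without Cryaa homo replicate 1 were added after seeing the data.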

Additional observations from a re-analysis of the deposited data

How the results depend on the processing

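Between ages, library size alone, which moved the median of all genes to -1.61, gave 5 subunits lower at 14 days in place of 2 higher. At 14 days 4 subunits were higher with the likelihood-ratio test, 4 with only the groups compared, 3 with DESeq2 and 3 with the replicate block (both adding Cct8), and leaving out single libraries gave 0 to 2. The shares of all genes called in these fits between ages are not given, so the counts are not read as particular to the subunits. In Cryaa homo against WT 1 subunit was called with library size alone (Cct2, higher), beside 2138 of 13938 genes. With the likelihood-ratio test 4 were called, beside 2887 of 13938 genes. When a library was left out 0 to 4 were called, beside 731 to 3092 genes. Against het 2 were called with every gene that had a count, beside 1419 of 26547 genes, in a fit where no gene keeps its own spread. The likelihood-ratio test called 5, beside 3052 of 13938 genes, and the replicate block 2 (Tcp1 and Cct5, both lower), beside 1280 of 13938. With a library left out 0 to 7 were called, the 7 beside 28.7% of all genes. For the difference of the homo effects the counts were 2 with the likelihood-ratio test, whose share of all genes is not given. They were 0 to 4 when a library was left out, the 4 beside 12.5% of all genes. The cause was not tested. The 3 contrasts within the Cryab line and Cryaa het against WT had 0 subunits called under every alternative run. Leaving out single libraries moved some values across 0. In Cryaa het against WT the range was -0.042 to 0.15 for Cct2. In Cryaa homo against WT the range was -0.40 to 0.22 for Cct3, -0.96 to 0.52 for Cct6a, -0.95 to 0.025 for Cct7 and -0.34 to 0.22 for Cct8. In the difference of the homo effects the range was -0.51 to 0.11 for Cct3, -1.31 to 0.17 for Cct6a and -0.48 to 0.085 for Cct8. In Cryab het against WT the range was -0.11 to 0.099 for Tcp1, -0.13 to 0.11 for Cct3, -0.13 to 0.086 for Cct5, -0.034 to 0.17 for Cct7 and -0.042 to 0.16 for Cct8. In Cryab homo against WT the range was -0.25 to 0.031 for Tcp1, -0.093 to 0.0030 for Cct2, -0.047 to 0.21 for Cct3, -0.096 to 0.22 for Cct4, -0.20 to 0.12 for Cct5, -0.016 to 0.81 for Cct6a and -0.074 to 0.26 for Cct8. In Cryab homo against het the range was -0.25 to 0.050 for Tcp1, -0.037 to 0.24 for Cct3, -0.26 to 0.050 for Cct4, -0.20 to 0.13 for Cct5, -0.38 to 0.30 for Cct6a, -0.0092 to 0.20 for Cct7 and -0.14 to 0.20 for Cct8. In Cryaa homo against WT the sign changed where Cct3 was at 0.041 with every gene with a count, Cct3 was at 0.49, Cct4 at 0.15 and Cct7 at 0.25 with library size alone, Cct8 was at -0.0036 with RLE factors and Cct3 was at 0.027 with Gm42418 and crystallins left out. It also changed where Cct8 was at -0.0035 with DESeq2, Cct6a was at -0.63 and Cct8 at -0.14 with the likelihood-ratio test, Cct6a was at -0.13 and Cct8 at -0.031 with the replicate block and Cct3 was at 0.016 with only the contrast's own groups. In Cryab het against WT the sign changed where Tcp1 was at 0.014 and Cct3 at 0.0073 with every gene with a count, Tcp1 was at 0.19, Cct2 at 0.11 and Cct3 at 0.19 with library size alone, Tcp1 was at 0.0010 with RLE factors and Cct5 was at -0.0070 with Gm42418 and crystallins left out. It also changed where Tcp1 was at 0.0011 with DESeq2, Tcp1 was at 0.0044 with the replicate block and Tcp1 was at 0.0036 with only the contrast's own groups. In Cryab homo against WT the sign changed where Tcp1 was at 0.29 and Cct2 at 0.32 with library size alone, Cct5 was at -0.0028 with the replicate block and Cct5 was at -0.017 with only the contrast's own groups. In Cryab homo against het the sign changed where Cct5 was at -0.015 with every gene with a count, Tcp1 was at 0.092, Cct4 at 0.081 and Cct6a at 0.17 with library size alone, Cct6a was at 0.0073 with RLE factors and Cct6a was at 0.0071 with Gm42418 and crystallins left out. It also changed where Cct6a was at 0.0070 with DESeq2, Cct6a was at 0.034 with the likelihood-ratio test, Cct5 was at -0.011 with the replicate block and Cct6a was at 0.018 with only the contrast's own groups. In the difference of the homo effects the sign changed where Cct3 was at 0.023 and Cct8 at 0.0046 with library size alone. In WT lenses of 14 against 2 days the sign changed where Tcp1 was at -0.50, Cct2 at -1.23, Cct3 at -1.26, Cct4 at -1.30, Cct5 at -0.42, Cct6a at -1.05, Cct7 at -0.91 and Cct8 at -0.86 with library size alone. These fitted values were not called in the main test, except those of Tcp1 and Cct5 between ages. Of the fits with another setting, 444 subunit values kept their direction and their side of the threshold, 22 passed it newly and 46 changed sign. Of these sign changes 21 came with library size alone, and relative to the median of all genes 2 of the 21 remained. Replicate numbers in the labels are shared between groups, but deviations correlated by over 0.1 for all 3 numbers only in Cryab homo against WT, where the block called 0 subunits. Depth did not reach under 406 counts for a subunit, and 3 libraries a group limit what can be seen.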
